A study of Homo sapiens with 6 samples.

Results

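The genes described here encode the ligands, receptors, intracellular mediators, antagonists and immediate target genes of the TGF-beta, BMP and activin pathways. They were selected by gene symbol, as the protein-coding genes whose symbols belong to the TGFB, BMP, BMPR, BAMBI, SMAD, SMURF, ACVR, INHB, GDF, LTBP, ID, FST, FSTL, GREM, NOG, CHRD, SKI, SKIL and ENG families, with GDF15 and BMP1 left out. The rule found 58 members among the 18936 genes of the count table, of which 13406 are protein-coding. RNA sequencing had been carried out on 3 libraries of the human bladder carcinoma line UC3 and 3 of UC3DDP, a subline selected from it. Per the study's methods, UC3 cells were exposed to gemcitabine and cisplatin in repeated rounds of rising dose with recovery in drug-free medium, so the lines differ by selection history, and UC3 is the untreated parent. UC3DDP is 1 selected population, and the labels do not say whether the 3 libraries of a line came from separate cultures, so the p-values measure the spread between libraries, which may be technical. The labels also name the line T24, retinas and a mouse genome build, but the gene identifiers are human and 99.6% of the genes lie at their GRCh38 position, so the data were read as human UC3.

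In this pathway, a dimeric ligand of the TGF-beta, activin or BMP type brings type II and type I receptor kinases together, and the type I receptor phosphorylates a receptor-activated SMAD. SMAD2 and SMAD3 carry the TGF-beta and activin signal, SMAD1, SMAD5 and SMAD9 carry the BMP signal, and both classes enter the nucleus with SMAD4. Secreted antagonists, the inhibitory SMADs and the SMURF ubiquitin ligases limit the signal at successive steps, and the ID genes are classical immediate targets of BMP signalling. In bladder carcinoma, TGF-beta is best known for its association with loss of epithelial features.

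The libraries held between 16757610 and 20803970 counts. Profiles of the same line correlated at 0.986 to 0.996, and profiles of different lines at 0.841 to 0.883. UC3DDP replicate 1 stood apart from its line, with 159 counts of CDH1, the epithelial cadherin, against 0 in the other 5 libraries, so results that depend on it are given with and without it. Of 16 epithelial and urothelial markers, 12 had a row in the table. Of these, 5 averaged over 1 CPM (counts per 1e+06 scaled library counts) in UC3 and 8 in UC3DDP, CDH1 through replicate 1 alone. Keratins 8 and 18 were expressed in both lines, as were PPARG (14.5 CPM in UC3 and 16.8 in UC3DDP) and FOXA1 (1.69 and 2.83). KRT19, EPCAM, UPK1A and UPK2 averaged under 1 CPM in each line. Of the 12 markers, 7 were tested, all with a log2 fold change over 0. Called higher were 2, KRT7 (1.47) and the basal factor TP63 (5.26, from 3 counts in UC3 to 110 in UC3DDP). The summed level of these 12 markers was 224 to 233 CPM in UC3 and 351 to 445 CPM in UC3DDP. That of 8 fibroblast markers was 11.5 to 12.5 and 16.3 to 31.0 CPM. For 4 endothelial markers it was 0.103 to 0.496 and 2.31 to 8.07 CPM. In each of these sums the highest UC3DDP value was that of replicate 1. Of 5 fibroblast markers tested, 4 were called higher (80%, against 17.6% of all genes) and 1 lower (20%, against 23.1%). The higher ones were LUM (4.57, from 4 counts in UC3 to 88 in UC3DDP), PDGFRA (2.55), COL1A1 (1.67) and PDGFRB (1.07). PDGFRB was not called without UC3DDP replicate 1 (0.92) or after the adjustment described below (0.47). THY1 was lower, at −3.68, from 5.87 to 0.455 CPM. Its UC3DDP libraries held 22, 0 and 1 counts, and without UC3DDP replicate 1 it was at −7.35. The fold changes of all genes also rose with the GC content of the transcript. Measured against the mean of the UC3 libraries, the gap between GC-rich and GC-poor genes was 1.69 to 2.37 on the log2 scale in the UC3DDP libraries. The UC3 libraries, which set that mean, lay within 0.02 of it. Each fold change is therefore followed, where it matters, by the value after adjustment for GC content and length, and the part of GC content in the results was not tested beyond that.

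A gene was called higher or lower when its edgeR adjusted p was under 0.05 and its absolute log2 fold change, UC3DDP over UC3, was over 1. Of the 58 members, 49 were abundant enough to be tested. Among these, 9 were higher in UC3DDP (18.4%, against 17.6% of all 15120 genes tested), 17 were lower (34.7%, against 23.1%) and 23 were not called. UC3 and UC3DDP libraries did not overlap for 45 of the 49, called or not, and the share over all genes was not counted. A lack of overlap given below therefore sets no member apart. The median log2 fold change was −0.05 over the members, also with FST at the lower bound described for it, and 0.02 over all genes. After adjustment for GC content and length, 7 members were higher (14.3%, against 13.2% of all genes) and 9 were lower (18.4%, against 14.6%). The gap to all genes narrowed for the lower share and not for the higher share. The role groups below held 1 to 6 tested members each, too few for their shares to be read as results about a role. Without UC3DDP replicate 1, the counts were 8 higher and 14 lower of 49, against 16.7% and 21.8% of the 15665 genes then tested. Under all 17 alternative settings tried, 4 members stayed higher, namely BMP4, INHBB, SMAD7 and FST, and 5 stayed lower, namely BMP7, ID4, SMAD6, LTBP4 and ACVR2B. The share of all genes that kept their calls under all 17 was not counted, so these numbers describe the members alone. Exon bases shared with another annotated gene were found for 28 of the 58 members, and of these 9 stable members only for BMP4, with a long noncoding RNA.

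**Figure D1:**
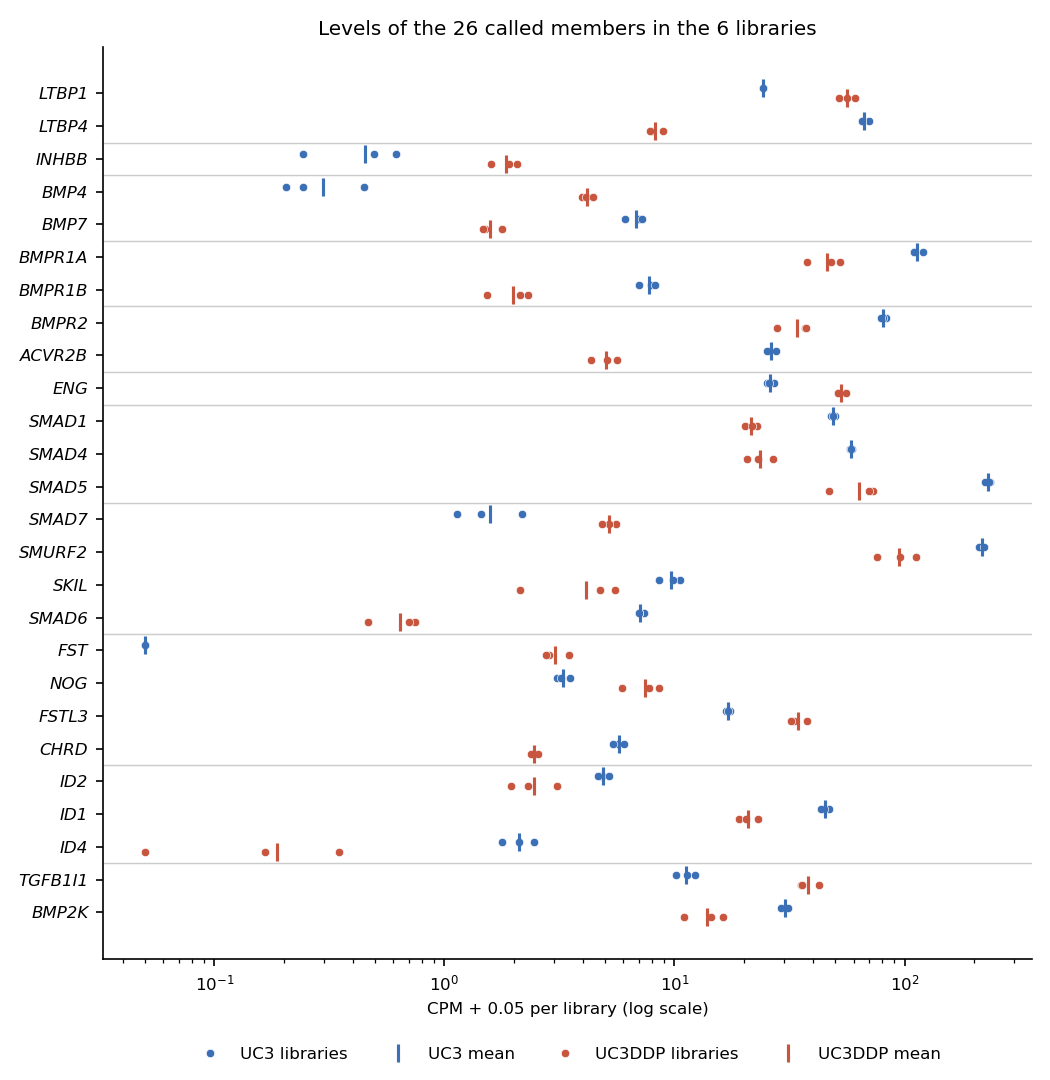
Level of each of the 26 called members in each library, in CPM plus 0.05 on a log scale, with 1 point per library and the members in order of role. SMAD6, LTBP4, ID4 and BMP7 are examples of members lower in every UC3DDP library than in any UC3 library, and BMP4 and FST of members higher. UC3 and UC3DDP libraries did not overlap for 45 of the 49 tested members, called or not.

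The promoters of 5 members are printed. FST and SMAD6 are the antagonist and the inhibitory SMAD with the largest fold changes. ID1, ID3 and ID4 belong to the family that is the classical readout of BMP signalling, and of these ID3 was not called. The RefSeq promoter table (GRCh38.p14) had entries for 51 of the 58 members. The 250 bases before the transcription start are given on the gene's own strand. Capitals mark matches to GTCTAGAC, the palindrome that SMAD3 and SMAD4 bind in vitro, to GGCGCC, a GC-rich BMP-SMAD sequence, or to CAGAC on either strand, the SMAD box. Neither of the first pair of motifs contains CAGAC or its reverse complement GTCTG.
FST: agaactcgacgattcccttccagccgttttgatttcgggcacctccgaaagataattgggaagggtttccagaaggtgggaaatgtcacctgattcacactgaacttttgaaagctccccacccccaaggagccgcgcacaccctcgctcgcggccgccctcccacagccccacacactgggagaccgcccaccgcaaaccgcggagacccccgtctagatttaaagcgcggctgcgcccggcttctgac
SMAD6: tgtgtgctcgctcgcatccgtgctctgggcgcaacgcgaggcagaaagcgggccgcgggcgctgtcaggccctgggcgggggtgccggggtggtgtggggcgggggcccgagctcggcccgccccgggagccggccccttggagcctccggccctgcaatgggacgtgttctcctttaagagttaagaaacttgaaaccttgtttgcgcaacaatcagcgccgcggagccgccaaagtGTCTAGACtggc
ID1: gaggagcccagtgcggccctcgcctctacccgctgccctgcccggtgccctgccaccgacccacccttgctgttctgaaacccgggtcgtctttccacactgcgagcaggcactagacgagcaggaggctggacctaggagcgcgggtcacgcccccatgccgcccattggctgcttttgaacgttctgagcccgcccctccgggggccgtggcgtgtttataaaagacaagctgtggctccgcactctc
ID3: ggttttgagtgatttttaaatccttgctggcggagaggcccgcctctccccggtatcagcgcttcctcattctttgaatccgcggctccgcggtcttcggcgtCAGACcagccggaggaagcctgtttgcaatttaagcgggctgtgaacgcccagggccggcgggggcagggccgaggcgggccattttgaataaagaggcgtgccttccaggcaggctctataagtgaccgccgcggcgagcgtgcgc
ID4: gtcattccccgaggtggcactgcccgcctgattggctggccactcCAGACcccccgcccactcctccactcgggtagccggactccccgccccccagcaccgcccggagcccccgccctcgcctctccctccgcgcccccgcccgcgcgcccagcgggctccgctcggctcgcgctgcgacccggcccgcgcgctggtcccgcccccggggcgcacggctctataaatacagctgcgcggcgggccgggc
These windows are chr5:53480379-53480628 (plus strand) for FST, chr15:66701986-66702235 (plus) for SMAD6, chr20:31605039-31605288 (plus) for ID1, chr1:23559502-23559751 (minus) for ID3 and chr6:19837120-19837369 (plus) for ID4. The SMAD6 window held GTCTAGAC, beginning 12 bases before the start. That palindrome was looked for after the sequence had been seen, and it occurs in 0.182% of the 35116 promoters of the table and in 1 of the 88 windows of members. CAGAC begins 147 bases before the start of ID3 and 205 bases before that of ID4, and it occurs in 38.0% of all promoters and in 35.2% of member windows. GGCGCC occurs in 16.4% of all promoters and in 25.0% of member windows, and in none of these 5. The windows of FST and ID1 held none of the 3 motifs, nor did that of ID2, which was called lower but is not printed. The GC content of the windows was 60.0% for FST, 68.0% for SMAD6, 66.0% for ID1, 62.0% for ID3 and 78.8% for ID4, against a median of 58.0% over all promoters.

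Of the TGF-beta ligands, TGFB1 and TGFB3 were measured, and neither was called. TGFB1, the main TGF-beta isoform of epithelial tumours, was the more abundant in both lines per kilobase of exon, at 16.9 ± 0.440 CPM per kb in UC3 and 25.3 ± 3.04 in UC3DDP (SD, n = 3). Its log2 fold change was 0.58 (SE 0.10, edgeR adjusted p = 0.00037), short of the fold limit, and −0.26 after the GC and length adjustment. TGFB3 stood at 4.52 ± 0.808 CPM in UC3 and 4.60 ± 0.239 CPM in UC3DDP (SD, n = 3), with a log2 fold change of 0.02 and of −0.44 after the adjustment.

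The latent TGF-beta binding proteins, which tether latent TGF-beta to the matrix, moved apart. LTBP4 was counted at 70.0, 65.5 and 65.0 CPM in the UC3 libraries and at 7.84, 7.79 and 8.83 CPM in the UC3DDP libraries. The groups did not overlap, and the log2 fold change was −3.03 (SE 0.09, edgeR adjusted p = 2.5e-08) and −3.80 after the adjustment. LTBP1 was counted at 24.2, 24.1 and 24.1 CPM in UC3 and at 51.7, 60.6 and 56.2 CPM in UC3DDP, again without overlap. Its log2 fold change was 1.22 (SE 0.08, edgeR adjusted p = 1.3e-06), and after the adjustment it was 0.86, under the fold limit. LTBP2 and LTBP3 were not called, with log2 fold changes of 0.50 and 0.95, although LTBP3 passed the limit without UC3DDP replicate 2 (1.001) or replicate 3 (1.02). Per kilobase, LTBP4 (13.5 ± 0.552 CPM per kb) was the most abundant of the 4 in UC3, followed by LTBP2 (9.23 ± 0.534), whereas in UC3DDP LTBP2 (13.1 ± 0.308) and LTBP1 (10.9 ± 0.861) led and LTBP4 stood at 1.64 ± 0.118 (SD, n = 3).

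Among the activin subunit genes, INHBB, which encodes the beta B chain of activin B and inhibin B, was measured. It was counted at 0.446, 0.569 and 0.192 CPM in UC3 and at 2.02, 1.86 and 1.54 CPM in UC3DDP. Every UC3DDP library lay above every UC3 library at these low levels, with a log2 fold change of 2.16 (SE 0.31, edgeR adjusted p = 0.00016) and 1.48 after the adjustment.

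Of 9 BMP and GDF ligands, 6 were tested, 1 was higher (16.7%, against 17.6% of all genes) and 1 was lower (16.7%, against 23.1%). BMP4, a secreted BMP of the BMP2 and BMP4 subgroup, was counted at 0.397, 0.155 and 0.192 CPM in UC3 and at 3.92, 4.07 and 4.38 CPM in UC3DDP. The groups did not overlap, and its log2 fold change of 4.02 (SE 0.25, edgeR adjusted p = 1.0e-06) was 3.41 after the adjustment. The ratio of its pooled counts was 16.6, with an exact 95% counting interval of 9.83 to 30.2. BMP7, of the BMP5 to BMP8 subgroup, went the other way, at 6.05, 6.93 and 7.21 CPM in UC3 and 1.72, 1.45 and 1.42 CPM in UC3DDP. Its groups did not overlap either, and the log2 fold change was −2.13 (SE 0.15, edgeR adjusted p = 1.7e-06) and −2.75 after the adjustment.

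BMP6, a paralogue of BMP7, was the most abundant ligand of this group per kilobase in both lines, at 13.4 ± 0.335 CPM per kb in UC3 and 6.82 ± 0.579 in UC3DDP (SD, n = 3). It was counted at 52.1, 49.6 and 50.3 CPM in UC3 and at 25.4, 28.1 and 23.8 CPM in UC3DDP. These groups did not overlap, but the log2 fold change of −0.97 was short of the limit. It passed the limit after the adjustment (−1.58, edgeR adjusted p = 2.5e-08) and when UC3 replicate 2 (−1.002) or UC3DDP replicate 2 (−1.06) was left out. GDF11, GDF9 and BMP8B had log2 fold changes of −0.05, 0.22 and 0.58 and were not called, BMP8B was at −0.02 after the adjustment, and reads of BMP8B are uncertain because BMP8A is nearly identical. The remaining ligands had too few counts to be tested: BMP2 had 13 in UC3 and 3 in UC3DDP over 3 libraries each, all 3 of the latter in replicate 1, BMP3 had 9 and 7, and GDF5 had 16 and 12. The ratio of BMP2, UC3DDP over UC3, was 0.273 with a counting interval of 0.050 to 0.995.

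The type I receptors, the kinases that phosphorylate the SMADs, gave 5 tested members. Of these, 2 were lower (40%, against 23.1% of all genes) and none was higher (against 17.6%). BMPR1B was counted at 7.0, 7.86 and 8.21 CPM in UC3 and at 1.48, 2.27 and 2.07 CPM in UC3DDP. BMPR1A was counted at 110, 120 and 110 CPM in UC3 and at 37.8, 52.4 and 47.6 CPM in UC3DDP. Both BMP receptors were lower without overlap between the groups. The log2 fold change of BMPR1B was −1.98 (SE 0.16, edgeR adjusted p = 4.2e-06) and that of BMPR1A was −1.30 (SE 0.12, edgeR adjusted p = 7.3e-06). Both are transcripts of low GC content, at 38.4% and 39.4%, and after the adjustment their values were −0.83 and −0.22 and neither was called. BMPR1A was the most abundant type I receptor per kilobase in UC3, at 17.7 ± 0.930 CPM per kb, while in UC3DDP ACVR1B (11.1 ± 0.929) and ACVR1 (10.8 ± 0.426) led without differing beyond their spread (SD, n = 3).

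The other type I receptors were not called. The TGF-beta receptor TGFBR1 was at −0.95 on the log2 scale and 0.21 after the adjustment, and it passed the limit without UC3DDP replicate 2 (−1.09) or replicate 3 (−1.04). ACVR1B, an activin receptor, was at 0.49. ACVR1, a BMP and activin receptor with a GC content of 38.5%, was at 0.21 and was called higher after the adjustment alone (1.27). ACVR1C and ACVRL1, with 7 counts in UC3 and 11 in UC3DDP each, were not tested.

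All 4 type II receptors were tested, and 2 were lower (50%, against 23.1% of all genes). ACVR2B, an activin and BMP receptor, was counted at 25.7, 25.2 and 27.6 CPM in UC3 and at 4.27, 5.06 and 5.57 CPM in UC3DDP. The groups were far apart, with a log2 fold change of −2.40 (SE 0.11, edgeR adjusted p = 2.3e-07) and −1.97 after the adjustment. BMPR2, the BMP type II receptor, was counted at 82.7, 80.3 and 78.6 CPM in UC3 and at 27.9, 37.0 and 37.3 CPM in UC3DDP. It was lower in every library (log2 fold change −1.24, SE 0.11, edgeR adjusted p = 7.3e-06), but its direction reversed after the adjustment, to 0.16. TGFBR2, the TGF-beta type II receptor, was the most abundant per kilobase in both lines, at 27.6 ± 1.14 CPM per kb in UC3 and 21.1 ± 1.73 in UC3DDP (SD, n = 3), and was not called (log2 fold change −0.39, and 0.12 after the adjustment). ACVR2A was at −0.94 and 0.37 after the adjustment, and it passed the limit only without UC3DDP replicate 2 (−1.08).

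The co-receptor ENG (endoglin) was counted at 27.0, 25.2 and 25.7 CPM in UC3 and at 55.4, 51.5 and 51.4 CPM in UC3DDP. The groups did not overlap. Its log2 fold change of 1.02 (SE 0.07, edgeR adjusted p = 1.9e-06) lay at the limit, was 0.99 without either UC3 replicate 2 or UC3DDP replicate 1, and was 0.19 after the adjustment. Endoglin is also an endothelial gene, and 4 other endothelial markers were summed at 2.31 to 8.07 CPM in UC3DDP, the highest in replicate 1. They were led by VWF, at 2.66 ± 1.25 CPM (SD, n = 3), and summed at 0.103 to 0.496 CPM in UC3. Their part in the ENG result was not tested. TGFBR3 (betaglycan), which presents TGF-beta to its receptors, was at 0.14 and was not called. BAMBI, a decoy receptor, and TGFBR3L were not tested, with 12 counts in each line and with 7 and 8.

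**Figure D2:**
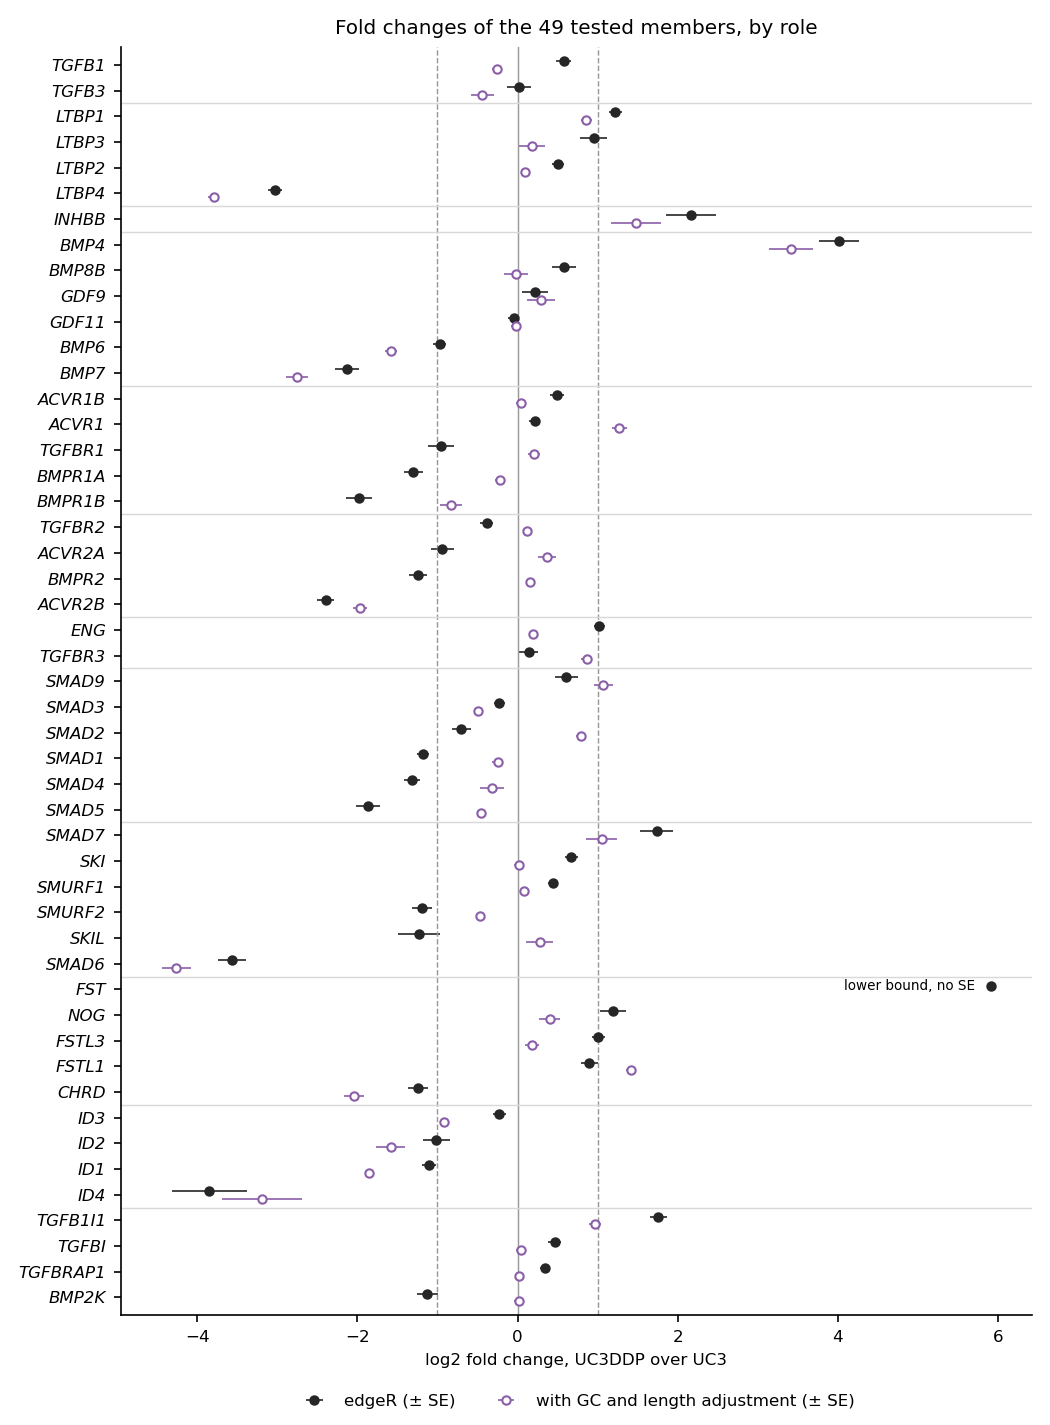
Log2 fold change, UC3DDP over UC3, of the 49 tested members by role, with the standard error, from edgeR (filled) and after adjustment for GC content and length (open). FST, at 0 counts in UC3, is drawn at its lower bound of 5.91, and dashed lines mark the fold limit of 1 in each direction.

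None of the 6 receptor-activated and common SMADs was higher (against 17.6% of all genes), and 3 were lower (50%, against 23.1%). SMAD5, a BMP mediator, was counted at 235, 232 and 224 CPM in UC3 and at 46.8, 72.8 and 69.7 CPM in UC3DDP. SMAD1, its paralogue, was counted at 48.0, 49.6 and 48.9 CPM in UC3 and at 20.1, 22.8 and 21.7 CPM in UC3DDP. SMAD4, the shared partner, was counted at 59.1, 57.7 and 58.2 CPM in UC3 and at 26.8, 23.0 and 20.6 CPM in UC3DDP. In none of these did the groups overlap. The log2 fold change of SMAD5 was −1.87 (SE 0.15, edgeR adjusted p = 3.6e-06), that of SMAD4 was −1.32 (SE 0.10, edgeR adjusted p = 2.5e-06) and that of SMAD1 was −1.18 (SE 0.08, edgeR adjusted p = 1.1e-06). After the adjustment the values were −0.46, −0.32 and −0.25, and none of the 3 was called.

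SMAD3, a TGF-beta and activin mediator, was the most abundant SMAD per kilobase in both lines, at 51.3 ± 0.628 CPM per kb in UC3 and 43.8 ± 1.59 in UC3DDP (SD, n = 3). Its log2 fold change was −0.23, and that of its partner SMAD2 was −0.70, so neither was called. After the adjustment SMAD3 was at −0.49, and SMAD2 changed sign, to 0.79, under the limit. SMAD9, the third BMP mediator, was at 5.03 ± 0.195 CPM in UC3 and 7.68 ± 1.30 CPM in UC3DDP (SD, n = 3). Its log2 fold change of 0.61 was called higher after the adjustment alone (1.07). In UC3DDP the SMAD5 level, 9.0 ± 2.03 CPM per kb, and the SMAD1 level, 7.17 ± 0.447, lay within their spread of each other (SD, n = 3). That rested on replicate 1, where they were about level, and SMAD5 led in replicates 2 and 3. In UC3 SMAD5 led at 32.9 ± 0.793 against 16.3 ± 0.268 (SD, n = 3).

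The inhibitory SMADs, which compete with the receptor-activated SMADs or recruit SMURFs to the receptors, moved in opposite directions. SMAD6, known mainly as an inhibitor of BMP signalling, was counted at 7.29, 6.93 and 6.97 CPM in UC3 and at 0.416, 0.698 and 0.652 CPM in UC3DDP. The UC3DDP libraries lay far below every UC3 library, with a log2 fold change of −3.57 (SE 0.18, edgeR adjusted p = 3.5e-07) and −4.26 after the adjustment. SMAD7, an inhibitor of both TGF-beta and BMP signalling, was counted at 1.39, 1.09 and 2.11 CPM in UC3 and at 5.52, 5.12 and 4.80 CPM in UC3DDP. Its libraries did not overlap either, and its log2 fold change was 1.74 (SE 0.21, edgeR adjusted p = 4.8e-05) and 1.05 after the adjustment. In UC3, SMAD6 had the higher level per kilobase, at 1.84 ± 0.0525 CPM per kb against 0.458 ± 0.158 for SMAD7, and in UC3DDP the order was reversed, at 0.154 ± 0.0396 against 1.54 ± 0.108 (SD, n = 3).

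SMURF2, a ubiquitin ligase for SMADs and receptors, was counted at 216, 211 and 222 CPM in UC3 and at 76.0, 112 and 95.8 CPM in UC3DDP. It was lower in every UC3DDP library (log2 fold change −1.19, SE 0.13, edgeR adjusted p = 2.1e-05), and after the adjustment the value was −0.47, under the limit. SMURF1, its paralogue, was at 0.44 and SKI, a SMAD corepressor, at 0.67, and neither was called. SKIL, a corepressor related to SKI, was counted at 10.5, 9.77 and 8.50 CPM in UC3 and at 2.08, 5.47 and 4.68 CPM in UC3DDP. The groups did not overlap, but replicate 1 was the lowest UC3DDP library, and the log2 fold change of −1.23 (SE 0.26, edgeR adjusted p = 0.0018) was −0.91 without it, under the limit. After the adjustment the direction of SKIL reversed, to 0.27. SMURF2 was the most abundant of these 6 regulators per kilobase in UC3, at 34.7 ± 0.855 CPM per kb, and in UC3DDP SMURF1 (16.8 ± 0.317) and SMURF2 (15.2 ± 2.89) did not differ beyond their spread (SD, n = 3).

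Of the secreted antagonists and follistatin family, 5 were tested, 3 were higher (60%, against 17.6% of all genes) and 1 was lower (20%, against 23.1%). FST (follistatin), which binds and neutralises activins, had 0 counts in each UC3 library and 47, 59 and 46 counts in the UC3DDP libraries, or 2.79, 3.43 and 2.73 CPM. Against a floor of 3 counts over the 3 UC3 libraries, it was at least 60.0-fold higher in UC3DDP (5.91 on the log2 scale, edgeR adjusted p = 4.2e-06). In bulk RNA a transcript gained by a few cells and one gained by all cells cannot be told apart. NOG (noggin), which binds BMPs, was counted at 3.03, 3.46 and 3.17 CPM in UC3 and at 8.55, 5.87 and 7.70 CPM in UC3DDP. It was higher in every UC3DDP library (log2 fold change 1.19, SE 0.16, edgeR adjusted p = 0.00010), and after the adjustment it was at 0.40 and not called.

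CHRD (chordin), another BMP antagonist, was the one lower member, at 5.66, 6.00 and 5.38 CPM in UC3 and 2.37, 2.33 and 2.49 CPM in UC3DDP. The groups did not overlap, with a log2 fold change of −1.24 (SE 0.12, edgeR adjusted p = 1.4e-05) and −2.04 after the adjustment. FSTL3, which like follistatin binds activin, was counted at 16.6, 17.3 and 17.1 CPM in UC3 and at 33.0, 32.0 and 37.7 CPM in UC3DDP. It was higher in every UC3DDP library, but its log2 fold change of 1.01 (SE 0.09, edgeR adjusted p = 4.9e-06) sat on the limit and was called in 3 of the 6 fits that left out 1 library. It fell under the limit without UC3 replicate 1 (0.98), UC3 replicate 3 (0.9999) or UC3DDP replicate 3 (0.94), and it was 0.18 after the adjustment. FSTL1, a secreted glycoprotein, was the most abundant of the family per kilobase, at 18.3 ± 0.653 CPM per kb in UC3 and 34.0 ± 4.75 in UC3DDP (SD, n = 3). At 0.90 it was not called, and after the adjustment it was (1.42, edgeR adjusted p = 1.0e-08). FSTL5 was not tested, at 0.382 ± 0.105 CPM in UC3 and 0.432 ± 0.0372 CPM in UC3DDP (SD, n = 3), and FSTL4 had 1 count in UC3 and 22 in UC3DDP, a ratio of 26.1 with a counting interval of 4.21 to 1076. Its UC3DDP libraries held 13, 1 and 8 counts, and without replicate 1 the ratio was 15.9, with an interval of 2.21 to 698.

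The ID genes, dominant-negative partners of basic helix-loop-helix factors, gave 3 lower members of 4 (75%, against 23.1% of all genes) and none higher. ID4 was counted at 1.74, 2.07 and 2.40 CPM in UC3 and at 0.297, 0.116 and 0 CPM in UC3DDP. These are 35, 40 and 50 counts against 5, 2 and 0, without overlap, and the log2 fold change was −3.85 (SE 0.47, edgeR adjusted p = 5.1e-05) and −3.19 after the adjustment. The value was −4.99 without UC3DDP replicate 1. ID1 was counted at 46.9, 44.8 and 43.4 CPM in UC3 and at 23.1, 19.0 and 20.5 CPM in UC3DDP. Its groups did not overlap, with a log2 fold change of −1.11 (SE 0.09, edgeR adjusted p = 3.6e-06) and −1.85 after the adjustment. ID2 was counted at 4.81, 5.12 and 4.61 CPM in UC3 and at 1.90, 2.27 and 3.02 CPM in UC3DDP. It too was lower in every UC3DDP library, at −1.01 (SE 0.17, edgeR adjusted p = 0.00043) and −1.58 after the adjustment. The ID2 call was lost without UC3DDP replicate 1 (−0.87), UC3DDP replicate 2 (−0.99) or UC3 replicate 2 (−0.99), and ID2 shares 145 exon bases with its antisense gene ID2-AS1.

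ID3 was not called, at 28.5, 29.3 and 29.4 CPM in UC3 and 27.4, 22.9 and 24.2 CPM in UC3DDP. Its log2 fold change was −0.23 and −0.92 after the adjustment, so all 4 ID genes had fitted values under 0 in both fits. ID1 was the most abundant per kilobase in UC3, at 45.8 ± 1.82 CPM per kb, followed by ID3 at 30.6 ± 0.520, whereas in UC3DDP ID3, at 26.1 ± 2.41, stood above ID1, at 21.2 ± 2.10 (SD, n = 3). ID1 and BMP7 lie on chromosome 20, where the median log2 fold change of 401 tested genes was −0.18.

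The rule also took in 4 genes whose symbols match it but that are not core components of the pathway. TGFB1I1 (Hic-5), a focal adhesion adaptor, was counted at 11.3, 12.2 and 10.1 CPM in UC3 and at 42.6, 35.5 and 35.7 CPM in UC3DDP. It was higher without overlap, at 1.76 (SE 0.11, edgeR adjusted p = 8.4e-07), and fell just under the limit after the adjustment, at 0.97. BMP2K, a kinase, was counted at 30.6, 31.1 and 29.0 CPM in UC3 and at 11.0, 16.2 and 14.4 CPM in UC3DDP. It was lower at −1.12 (SE 0.13, edgeR adjusted p = 2.8e-05), at −0.98 without UC3DDP replicate 1, and at 0.01 after the adjustment. It shares 5639 exon bases with PAQR3 on the opposite strand, and with no strand setting known for the counting, reads of the overlap cannot be assigned to either gene. TGFBI, a matrix protein induced by TGF-beta, was the most abundant of the 4 per kilobase (23.7 ± 0.649 CPM per kb in UC3 and 32.6 ± 3.14 in UC3DDP, SD, n = 3). TGFBI and TGFBRAP1, a protein that associates with TGF-beta receptors, were at 0.46 and 0.34 and were not called.

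The median GC content of the tested members differed between roles, and some roles held a wide range. It ran from 41.4% to 58.6% among the ID genes and from 42.9% to 64.6% among the antagonists. Among the inhibitory SMADs, SMURFs and SKI repressors it ran from 35.8% to 61.4%. The receptor-activated and common SMADs had a median GC content of 40.7%, the type II receptors 40.9% and the type I receptors 38.8%, against 61.9% for the latent TGF-beta binding proteins, 59.2% for the antagonists, 55.0% for the ID genes and 47.5% for all tested genes. The 25 tested members at or below the members' median of 51.2% held 1 higher and 11 lower member, with a median log2 fold change of −0.94, and the 24 above it held 8 higher and 6 lower, with a median of 0.54. After the adjustment these groups held 4 higher and 2 lower, and 3 higher and 7 lower, with medians of 0.04 and 0.03. The trend was that of the whole table. Over all tested genes in 20 bins of GC content, the median was −1.55 in the lowest bin and 0.78 in the highest. After the adjustment those medians were −0.10 and −0.02. Called shares on either side of 51.2% were not counted over all genes. The calls on BMPR1A, BMPR1B, SMAD1, SMAD4, SMAD5, SMURF2 and, in the other direction, LTBP1, TGFB1I1, NOG, ENG and FSTL3 did not hold through this adjustment, and those on BMPR2, SKIL and BMP2K changed sign. ID1, BMP7, SMAD6, LTBP4 and CHRD are GC-rich transcripts that were lower in UC3DDP, and their values lay farther from 0 after the adjustment.

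**Figure D3:**
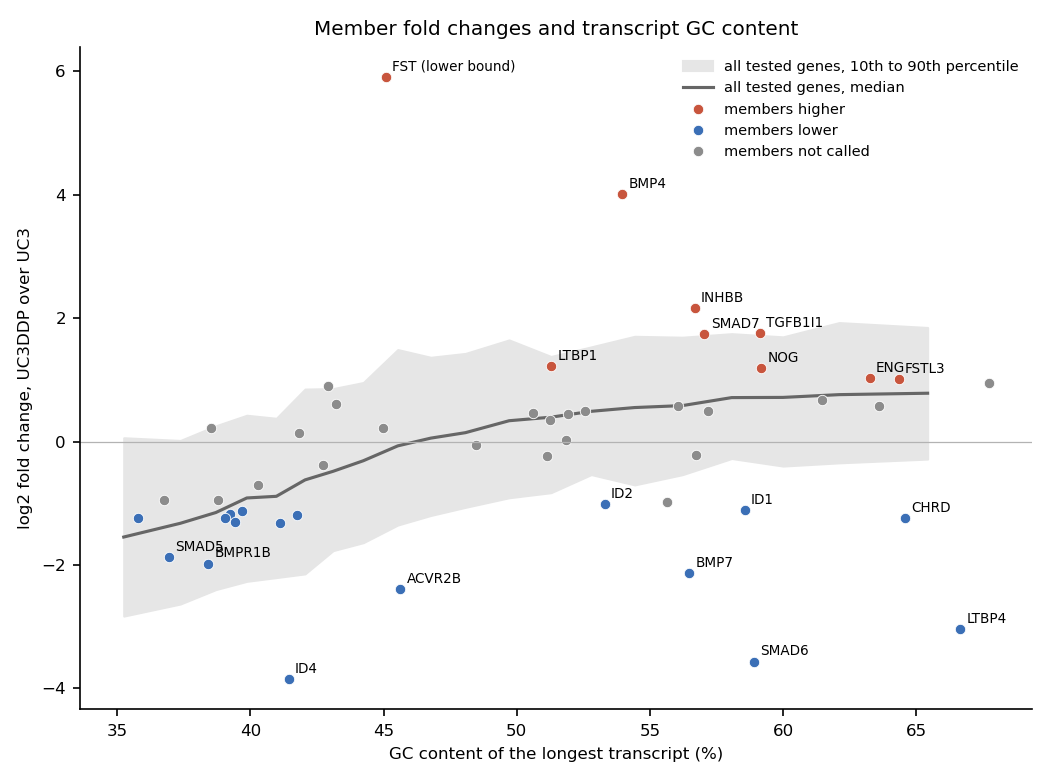
Log2 fold change of the 49 tested members against the GC content of the longest transcript in percent, over the median (line) and the 10th to 90th percentile (band) of all tested genes in 20 bins. BMPR1B and SMAD5 lie inside the band among GC-poor genes, whereas SMAD6, LTBP4, BMP7, CHRD and ID1 lie below it and BMP4 and FST, drawn at its lower bound, above it.

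Other genes of the pathway were read from 3 lists that the rule did not use, chosen with earlier results of these data known. Of 40 further pathway components, 27 were tested, of which 6 were higher (22.2%, against 17.6% of all genes) and 6 were lower (22.2%, against 23.1%), with a median log2 fold change of −0.03. DAB2, an adaptor that links TGF-beta receptors to SMADs, went from 0.616 ± 0.124 CPM in UC3 to 20.6 ± 0.267 CPM in UC3DDP (SD, n = 3), a log2 fold change of 5.05 and 5.13 after the adjustment. USP15, a deubiquitinase of the receptor complex, went from 89.1 ± 0.115 to 10.3 ± 2.99 CPM (SD, n = 3), at −3.11 and −1.35 after the adjustment. HTRA1, a secreted protease that can cleave TGF-beta family proteins, was at −2.01 and −2.76 after the adjustment. Adjusted for GC content and length, DAB2 and NEDD4L were higher and USP15 and HTRA1 lower, and the other 8 calls of this list were not made, among them those on HGS (1.60), TRIM33 (−1.57) and PPM1A (−1.52).

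Of 25 textbook targets of TGF-beta and SMAD3, 19 were tested, of which 12 were higher (63.2%, against 17.6% of all genes) and none was lower (against 23.1%), with a median log2 fold change of 1.37. After the adjustment 9 were higher (47.4%, against 13.2% of all genes), with a median of 0.94. FN1, which encodes fibronectin, went from 8.87 ± 0.497 CPM in UC3 to 118 ± 4.70 CPM in UC3DDP (SD, n = 3), at 3.74. TAGLN and ACTA2, of the contractile apparatus, were at 3.30 and 2.34, and the basement membrane collagens COL4A1 and COL4A2 at 2.61 and 2.91. THBS1, a matrix protein that can activate latent TGF-beta, was at 2.63. The direct target PMEPA1, at 14.7 ± 1.35 CPM in UC3 and 16.0 ± 1.39 CPM in UC3DDP (SD, n = 3), was not called (0.12). The list is no independent evidence of a direction, since it was chosen with earlier results of these data known. The study itself named FN1 and THBS1 as overexpressed in its resistant lines, and FN1 is the gene it took further. COL1A1, COL1A2 and COL3A1 are also fibroblast markers, of which COL3A1 had 58, 2 and 2 counts in the UC3DDP libraries.

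Of 15 textbook BMP and SMAD1 targets apart from the ID genes, 10 were tested, 5 were higher (50%, against 17.6% of all genes) and none was lower (against 23.1%), with a median log2 fold change of 1.24 and of 0.60 after the adjustment. The higher genes were ALPL (3.38), GATA2 (2.18), ATOH8 (1.84), MSX1 (1.62) and SOX9 (1.53), of which MSX1 was not called after the adjustment (0.82). MSX2, a paralogue of MSX1, was at −0.80 and was not called. In the same libraries ID1, ID2, ID4 and SMAD6, which are also known as BMP targets, were lower, ID2 only just past the limit (−1.01). ID3 was not called (−0.23), and SMAD7, the other inhibitory SMAD, was higher (1.74).

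**Figure D4:**
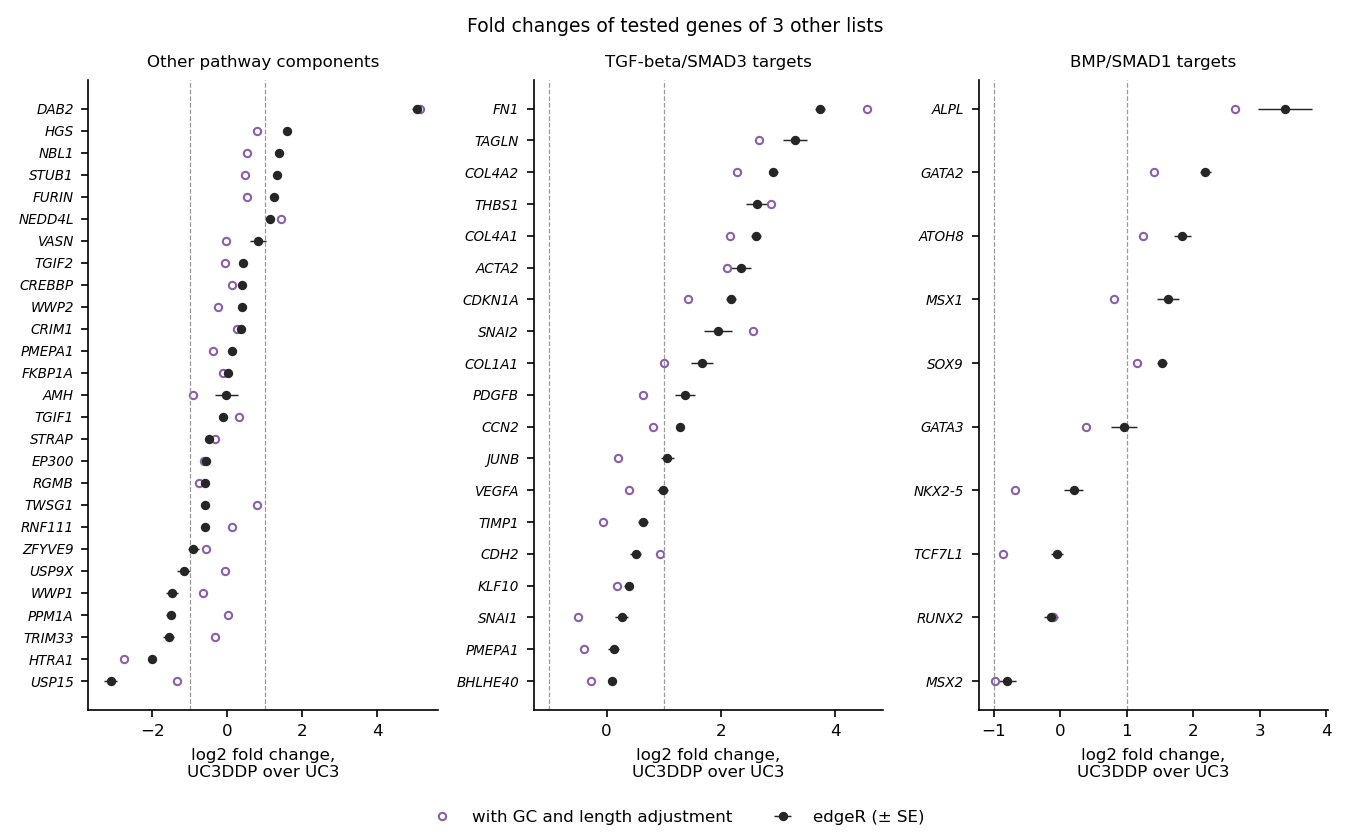
Log2 fold change, UC3DDP over UC3, of the tested genes of the 3 further lists, with the standard error, from edgeR (filled) and after adjustment for GC content and length (open). DAB2, at 5.05, and USP15, at −3.11, end the list of components, and no listed target passed the limit of 1 downward.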

How the data were processed

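RNA sequencing was carried out on 3 libraries of UC3 and 3 of UC3DDP, grouped by the line in their titles. Per the study's methods, reads were trimmed with Fastp, aligned to GRCh38 with HISAT2 and counted with featureCounts, while the submitters' processing notes name a mouse build. The authors deposited raw counts of 18936 genes, with totals of 16757610 to 20803970 per library. The deposited table also carries the authors' own comparison (log2 fold change, fold ratio, p-value, false discovery rate), which was not used, and the exon length, which was.

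Members and lists were chosen with earlier results of these data known. Genes passing filterByExpr (minimum count 10) were scaled by TMM and tested with edgeR 4.0.16 (quasi-likelihood, Benjamini-Hochberg adjustment over 15120 genes) in R 4.3.3. CPM used the TMM-scaled library sizes. The adjusted fit added, as offsets, loess trends (span 0.3) of each library on GC content and on length. GC content was that of the longest transcript in GENCODE release 44, and length was the deposited exon length on the log2 scale. Scripts were tested on simulated data. Alternatives were DESeq2 1.42.0, limma 3.58.1 voom, other size factors, no filter, no fold limit, glmTreat, the replicate block, and each library left out, and 1 alternative, the adjustment without UC3DDP replicate 1, was chosen after seeing the data. Counting intervals are exact binomial, at 95%, and cover counting error only.

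By rule, the text names every called member with at least 1 CPM in the higher line, the most abundant member of each role per kilobase, and members with too few counts. From the other lists it names up to 6 called genes of largest change, and PMEPA1, MSX2, NEDD4L, GDF11 and the other uncalled genes were added after their values were seen. Genes of the lists without a row were not analysed here, and 1 gene of the TGF-beta target list is not reported here.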

Additional observations from a re-analysis of the deposited data

How the results depend on the processing

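The 9 members named as stable kept direction and call under all 17 alternatives, a count that was not made over all genes. With no fold limit, 21 members were higher and 24 lower, and 6134 of all genes were higher and 6038 lower. Testing against the limit itself (glmTreat) left 6 members higher and 11 lower, and 1935 and 2603 of all genes, without the calls on ID1, ID2, ENG, SKIL, SMURF2, BMP2K, CHRD, FSTL3 and NOG, and DESeq2 was without that on FSTL3 (0.99). With the GC and length adjustment, 9 members were lower, and also with the replicate block added or without UC3DDP replicate 1. For all genes these fits gave 2202, 2210 and 2236 lower. In these 3 fits BMP2K stood at 0.013, 0.012 and 0.0075, BMPR2 at 0.16, 0.16 and 0.11, and SKIL at 0.27, 0.26 and 0.43, against lower values in the unadjusted fit. The cause was not tested.

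Leaving out 1 library gave 8 to 10 members higher and 14 to 19 lower, and 2611 to 2885 and 3415 to 3891 of all genes. A fit with the replicate number as a replicate block gave 9 members higher and 17 lower, and 2660 and 3514 of all genes. The numbers do not pair the libraries: deviations of same-numbered libraries correlated at -0.047, -0.014 and -0.0089, and 0 of 6 libraries correlated best with its own number. Depth limits the 9 untested members, where a difference was not detectable at these counts except as the intervals given.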
